A study of Mus musculus with 12 samples.

Results

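The NF-κB subunits and their feedback inhibitors comprised 10 genes, taken as the rows of both expression tables whose symbol matched, out of 52636 gene rows. They were the 5 subunit genes Nfkb1, Nfkb2, Rela, Relb and Rel and the 5 IκB and feedback genes Nfkbia, Nfkbie, Nfkbiz, Tnfaip3 and Bcl3. All 10 members had 1 row in each table, and in both cell types all 10 reached the minimum mean of 1 TPM (transcripts per 1000000, a unit scaled by transcript length and library total) that testing required. Bulk RNA-seq covered 12 libraries, 3 in each of 4 groups: SMCs given a scrambled control RNA (Scr), SMCs given an siRNA against Klf4 (siKlf4), and lung PDGFR-β+ cells given either Scr or siKlf4. Klf4 encodes a zinc finger transcription factor. The labels give C57BL/6 for all 4 groups. The SMCs are commercial tracheal cells, called airway SMCs in the sample titles, and no age is given for them. The PDGFR-β+ cells came from lungs of mice aged 12 weeks and, by the study's methods, were sorted by ZsGreen from mice that carried Pdgfrb-CreERT2 and ROSA26R(Zs/+) and had received tamoxifen, a driver that marks several fibroblast populations as well as pericytes. The labels list genotype as WT for Scr and Klf4 KD for siKlf4, that is, a transient knockdown and no altered Klf4 allele. After 2 h without serum, cells received 50 nM RNA for 6 h and were then cultured for 72 h, and the labels name no inflammatory stimulus.

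NF-κB transcription factors are dimers of Rel family proteins that are held in the cytoplasm by IκB proteins. Receptors for tumour necrosis factor, interleukin-1 and microbial products activate an IκB kinase, IκB is degraded, and the dimers enter the nucleus, where their targets include the genes for IκB proteins and for deubiquitinating enzymes that turn the signal off. A second, slower route processes the Nfkb2 precursor to release dimers that contain RelB. Much of this regulation is of protein stability and location, which transcript levels do not measure.

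The targeted transcript was lower in every knockdown library. Klf4 was 89.6 to 96.3 TPM in Scr and 16.3 to 26.5 TPM in siKlf4 SMCs, and 135 to 146 TPM in Scr and 12.3 to 13.8 TPM in siKlf4 PDGFR-β+ cells. Of the SMC libraries, 1 Scr and 1 siKlf4 library carried no replicate number. These libraries deviated together from their group means across genes (r = 0.361 over 13709 genes). Deviations from a group mean cancel within the group, so the negative values against the numbered libraries (r between -0.190 and -0.217) follow from this and add no evidence. Values from the 4 numbered libraries are therefore given beside the SMC results of the members. Summed smooth muscle markers were 1497 to 2287 TPM in Scr and 3413 to 4177 TPM in siKlf4 SMCs, below the 5556 to 6414 TPM of Scr PDGFR-β+ cells, and Myocd, the cofactor that drives the contractile programme, had a mean of at most 0.143 TPM in every group, so the contractile markers did not set the SMC label apart. The 8 mesenchymal markers had a mean of at least 1 TPM in all groups, whereas lymphocyte markers summed to at most 0.143 TPM.

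Promoter sequences were available from RefSeq (GRCm38.p6) for 7 of the 10 members, and Nfkb1, Relb and Nfkbiz had no entry. They are shown because NF-κB target genes carry a recognisable κB element near the start. The NF-κB consensus, 10 letters searched on both strands, occurred in the 250 bases before the start in 2382 of 32851 promoters (7.25%) and in at least 1 window of 5 of the 7 members, Nfkb2, Rel, Nfkbia, Nfkbie and Tnfaip3. The CACCC box (CACCC on either strand), the core bound by Krüppel-like factors, occurred in 17087 promoters (52.0%) and in 4 of the 7 members, Bcl3, Nfkb2, Rela and Tnfaip3. The 5-letter motif lies within the κB match of Tnfaip3 that starts 125 bases before the start. The 7 members had 10 windows in all, whereas the shares over all promoters count single windows, so counts by member and these shares are not in the same unit. Letter matches describe the sequence and are not binding sites. The 250 bases before the Nfkbia start (chr12:55492648-55492897, minus strand) hold 1 κB match, in capitals, and the 235 bases upstream of the annotated Bcl3 gene (chr7:19822771-19823005, minus strand) hold none but have 2 CACCC boxes, also in capitals:
Nfkbia: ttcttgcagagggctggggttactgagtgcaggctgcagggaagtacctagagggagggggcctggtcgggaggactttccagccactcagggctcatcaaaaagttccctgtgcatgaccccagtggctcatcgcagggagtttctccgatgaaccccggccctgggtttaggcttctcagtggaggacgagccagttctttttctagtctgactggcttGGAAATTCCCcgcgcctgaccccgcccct
Bcl3: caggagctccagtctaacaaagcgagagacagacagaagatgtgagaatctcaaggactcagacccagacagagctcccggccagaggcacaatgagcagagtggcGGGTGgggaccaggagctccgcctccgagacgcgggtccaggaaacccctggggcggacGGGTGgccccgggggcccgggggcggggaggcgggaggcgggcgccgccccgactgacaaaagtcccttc
Windows of 30 bases with their κB matches in capitals are given for Tnfaip3 (chr10:19015516-19015545 and chr10:19015411-19015440, minus strand), Rel (chr11:23771041-23771070, minus strand), Nfkbie (chr17:45555584-45555613, plus strand) and Nfkb2 (chr19:46304689-46304718, plus strand):
Tnfaip3, 135 to 106 bases before the start: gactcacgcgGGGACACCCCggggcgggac
Tnfaip3, 30 to 1 bases before the start: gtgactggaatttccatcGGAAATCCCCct
Rel, 101 to 72 bases before the start: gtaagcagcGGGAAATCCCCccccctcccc
Nfkbie, 116 to 87 bases before the start: gcagcaaacaGGGGGATTCCggaggggcgg
Nfkb2, 48 to 19 bases before the start: gatcgtcacGGGAATTCCCCccctcggggg
In Rel and Nfkb2 the capitals hold overlapping matches that read on both strands. The RefSeq starts used for these windows lie 247 bases inside the GENCODE gene for Tnfaip3 and 417 bases inside it for Nfkb2.

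Within each cell type, siKlf4 was compared with Scr by limma on log2(TPM + 1), with Benjamini-Hochberg adjustment over all genes tested and a threshold of 0.05. With 3 libraries against 3 the smallest exact permutation p is 0.1, so the limma values rest on a spread shared across genes, and they measure the variation between these libraries, which the methods describe as independent experiments. In SMCs 5 of the 10 members passed, 3 higher and 2 lower, against 28.5% of 13709 genes tested (15.6% higher and 12.9% lower). That count rests on the full set of libraries. Leaving out any 1 of the 6 gave 0 to 2 members by limma (0 without Scr replicate 2 and 0 without siKlf4 replicate 2, with 6 and 5 members at an unadjusted p under 0.05), and testing with no filter on low values gave 0 (5 at an unadjusted p under 0.05). In PDGFR-β+ cells 5 members passed, 4 higher and 1 lower, against 40.6% of 13694 genes (25.3% higher and 15.3% lower), and 3 to 5 passed on leaving out 1 library, with 3 without siKlf4 replicate 1 or siKlf4 replicate 2. Tnfaip3 and Rel were higher and Bcl3 lower in both cell types, Nfkbiz fell in SMCs but rose in PDGFR-β+ cells, Rela passed in SMCs and Nfkb1 in PDGFR-β+ cells. Nfkb2, Relb, Nfkbia and Nfkbie passed in neither. In each cell type 6 members had groups that did not overlap, against 47.1% of genes in SMCs and 53.8% in PDGFR-β+ cells. The median log2 fold change of the 10 members was 0.15 in SMCs and 0.21 in PDGFR-β+ cells, beside 0.02 and 0.10 over all genes tested.

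**Figure D1:**
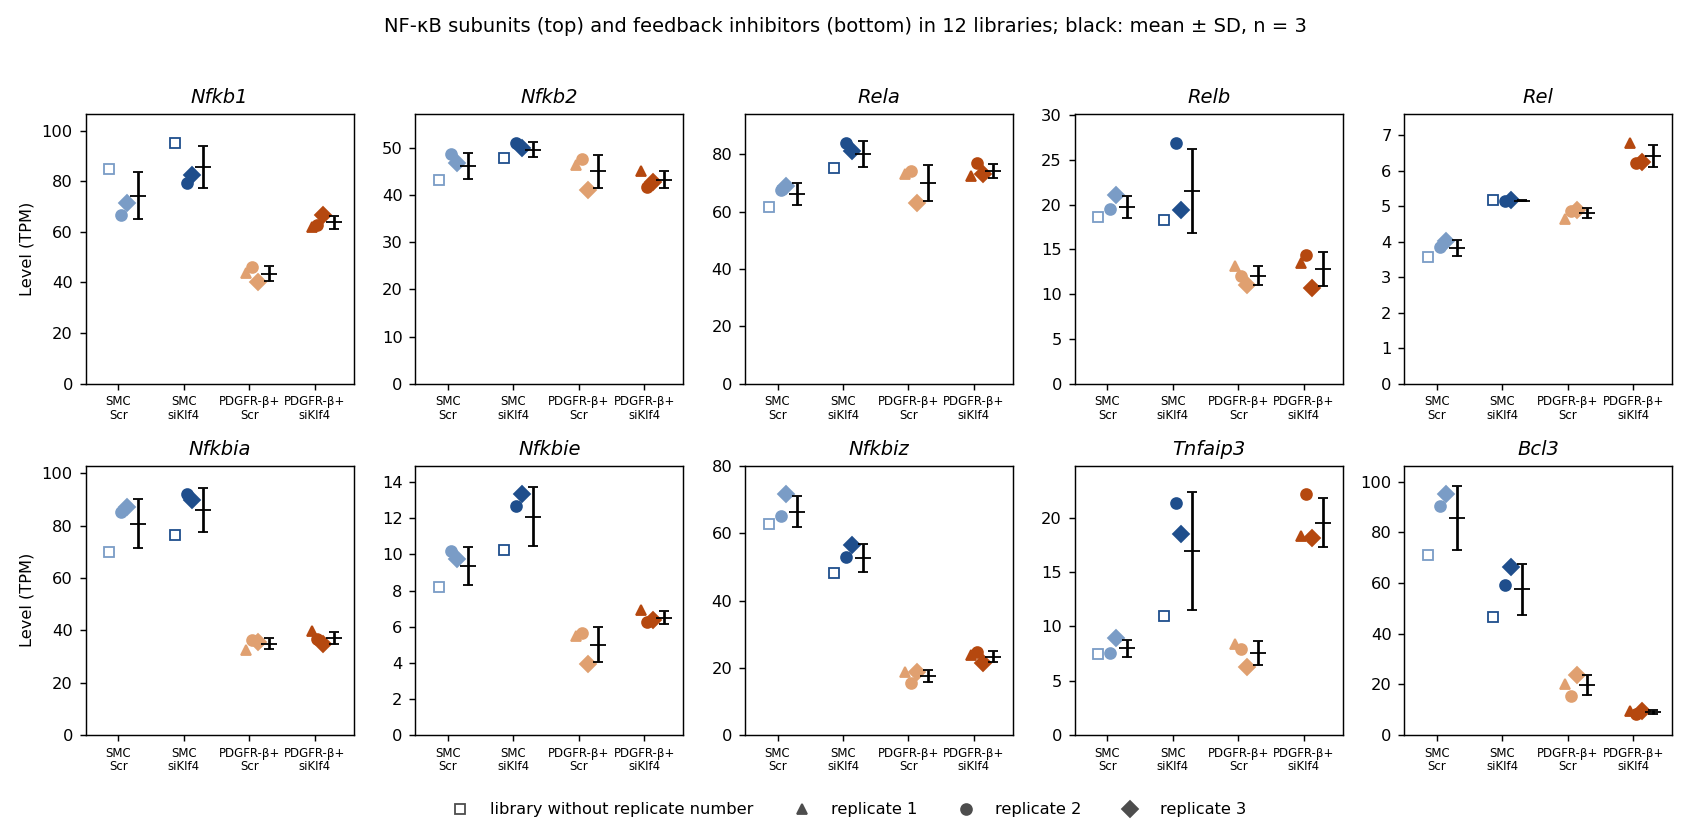
TPM of each member (vertical axes, linear and starting at 0) in the 12 libraries by group, with subunits in the top row and feedback inhibitors in the bottom row; symbols mark replicates, open squares the SMC libraries without a replicate number, and black bars the mean ± SD of 3 libraries. Tnfaip3 is higher and Bcl3 lower with siKlf4 in both cell types, and Nfkbiz moves down in SMCs and up in PDGFR-β+ cells.

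Tnfaip3 (chr10:19000910-19015657 in GENCODE M21 of GRCm38, minus strand), the ubiquitin-editing enzyme that shuts off signalling upstream of the IκB kinase, had the largest rise of the 10 members in both cell types. In SMCs it was 7.50, 7.55 and 8.92 TPM in the Scr libraries and 10.9, 21.4 and 18.5 TPM in the siKlf4 libraries, the first of each, as in all SMC values that follow, being the library without a number. In PDGFR-β+ cells it was 8.43, 7.89 and 6.29 TPM in Scr and 18.4, 22.2 and 18.1 TPM in siKlf4. The groups did not overlap in either cell type, the unnumbered siKlf4 SMC library was the lowest treated value, and the Scr ranges of the cell types overlapped each other. Mean levels were 2.12-fold higher in SMCs (log2 fold change 0.95 ± 0.23 SE, limma adjusted p = 0.0216) and 2.59-fold higher in PDGFR-β+ cells (1.27 ± 0.13, limma adjusted p = 0.000348). A higher log2 fold change was found for 1.95% of tested genes in SMCs and for 2.40% in PDGFR-β+ cells. The 4 numbered SMC libraries gave 1.18 ± 0.13 (limma adjusted p = 0.00724), against 0.49 between the unnumbered libraries. The SMC call was lost on leaving out Scr replicate 2 (limma adjusted p = 0.0661), the unnumbered Scr library (0.0553), siKlf4 replicate 2 (0.0637) or siKlf4 replicate 3 (0.0725), with log2 fold changes of 0.92, 0.91, 0.77 and 0.87. The PDGFR-β+ call held in all 6 such fits.

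Bcl3 (chr7:19808462-19822770, minus strand), an atypical nuclear IκB protein that binds homodimers of the processed Nfkb1 and Nfkb2 products, was the member with the largest fall. It was 71.2, 90.4 and 94.9 TPM in Scr and 46.8, 59.3 and 66.4 TPM in siKlf4 SMCs, and 20.2, 15.4 and 23.6 TPM in Scr and 9.55, 8.28 and 9.53 TPM in siKlf4 PDGFR-β+ cells. Every knockdown value was below every control value of the same cell type, and the unnumbered library was the lowest of both SMC groups. Mean Bcl3 in siKlf4 cells was 67.2% of Scr in SMCs (log2 fold change -0.57 ± 0.16 SE, limma adjusted p = 0.0340) and 46.2% in PDGFR-β+ cells (-1.02 ± 0.15, limma adjusted p = 0.00186). A lower log2 fold change was found for 8.65% of genes in SMCs and 2.98% in PDGFR-β+ cells. The numbered SMC libraries gave -0.55 ± 0.07 (limma adjusted p = 0.0113). Leaving out Scr replicate 2, Scr replicate 3, siKlf4 replicate 2 or the unnumbered siKlf4 library raised the limma adjusted p in SMCs to 0.0990, 0.0963, 0.0762 and 0.0731, with log2 fold changes between -0.43 and -0.60. An antisense gene within Bcl3, Gm16174, reached at most 1.61 TPM in any library. Strand-specific libraries were made, but the sources used here do not say whether counting used strand.

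Nfkbiz (chr16:55811375-55838899, minus strand) encodes another nuclear IκB protein, a cofactor for secondary response genes such as those for cytokines and antimicrobial proteins. It was 62.6, 65.2 and 71.6 TPM in Scr and 48.3, 53.1 and 56.6 TPM in siKlf4 SMCs. In PDGFR-β+ cells it was 18.7, 15.6 and 18.6 TPM in Scr and 23.8, 24.6 and 21.5 TPM in siKlf4. The 3 knockdown values lay below the controls in SMCs and above them in PDGFR-β+ cells. Mean Nfkbiz in siKlf4 SMCs was 79.2% of Scr (log2 fold change -0.33 ± 0.09 SE, limma adjusted p = 0.0301), and in PDGFR-β+ cells it was 1.32-fold higher (0.39 ± 0.10, limma adjusted p = 0.0194). The difference between these effects, tested as the interaction term over the 12 libraries, was -0.72 ± 0.13 (SMCs minus PDGFR-β+ cells, limma adjusted p = 0.00184), and it passed on leaving out each of the 12 libraries, with limma adjusted p of at most 0.00602. Nfkbiz was the 1 member of 10 to pass this test, against 33.0% of 13032 genes. The targeted gene Klf4 also differed in this test (1.19 ± 0.19, limma adjusted p = 0.000690). Its siKlf4 mean was 21.9% of Scr in SMCs and 9.16% in PDGFR-β+ cells. Wherever effects are compared between the cell types, cell type, depth of knockdown, source and handling cannot be told apart. The Nfkbiz calls within a cell type were less firm. In SMCs the limma adjusted p was 0.0740 without Scr replicate 2, 0.0897 without Scr replicate 3, 0.0731 without the unnumbered siKlf4 library and 0.0829 without siKlf4 replicate 2, and in PDGFR-β+ cells it was 0.0567 without siKlf4 replicate 1 and 0.0706 without siKlf4 replicate 2. The numbered SMC libraries gave -0.31 ± 0.07 (limma adjusted p = 0.0395).

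The classical IκB genes passed in neither cell type. Nfkbia (chr12:55489410-55492647, minus strand), which encodes IκBα, the prototype inhibitor that NF-κB induces to end its own response, was 69.9, 85.3 and 86.9 TPM in Scr and 76.5, 91.9 and 89.9 TPM in siKlf4 SMCs, and 32.5, 36.5 and 35.5 TPM in Scr and 39.6, 36.7 and 34.9 TPM in siKlf4 PDGFR-β+ cells. The Nfkbia groups overlapped in each cell type, and its log2 fold changes were 0.09 ± 0.11 (SE, limma adjusted p = 0.556) and 0.09 ± 0.08 (limma adjusted p = 0.436). The numbered SMC libraries gave 0.08 ± 0.05 (limma adjusted p = 0.275). Nfkbie (chr17:45555703-45563169, plus strand) encodes IκBε, an inhibitor that acts later in the response. Its levels were 8.20, 10.22 and 9.72 TPM in Scr and 10.25, 12.7 and 13.3 TPM in siKlf4 SMCs, and 5.46, 5.65 and 3.92 TPM in Scr and 6.92, 6.23 and 6.35 TPM in siKlf4 PDGFR-β+ cells. All knockdown values of Nfkbie exceeded the controls of the same cell type, narrowly so in SMCs. Its log2 fold change was 0.33 in both cell types and passed in neither (limma adjusted p = 0.102 in SMCs and 0.101 in PDGFR-β+ cells), although in SMCs the numbered libraries alone gave 0.35 ± 0.09 (limma adjusted p = 0.0465) and a term for the naming of the libraries, numbered or not, gave a limma adjusted p of 0.0156.

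Among the subunits, Rel (chr11:23736847-23770970, minus strand), which encodes c-Rel, best known for its role in lymphocytes, was the least abundant in every group. It was 3.57, 3.84 and 4.03 TPM in Scr and 5.17, 5.14 and 5.16 TPM in siKlf4 SMCs, and 4.65, 4.87 and 4.90 TPM in Scr and 6.77, 6.21 and 6.24 TPM in siKlf4 PDGFR-β+ cells. The groups did not overlap in either cell type. Mean levels were 1.35-fold and 1.33-fold higher with siKlf4 (log2 fold changes 0.36 ± 0.11 SE and 0.35 ± 0.10, limma adjusted p = 0.0451 and 0.0265). Leaving out any 1 of the 6 libraries ended the SMC call (limma adjusted p between 0.0745 and 0.122), as did using the numbered libraries alone (0.32 ± 0.12, limma adjusted p = 0.108). In PDGFR-β+ cells the call was lost without any library other than Scr replicate 2 (limma adjusted p up to 0.0810, without Scr replicate 1).

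Rela (chr19:5637483-5648130, plus strand) encodes the main transactivating subunit of the canonical pathway. Scr SMCs had 61.7, 67.6 and 68.9 TPM and siKlf4 SMCs 75.3, 83.9 and 81.3 TPM, with no overlap, and in PDGFR-β+ cells the values were 73.1, 74.2 and 62.9 TPM in Scr and 72.6, 76.8 and 73.1 TPM in siKlf4, with overlap. The SMC change was 1.21-fold (log2 fold change 0.28 ± 0.08 SE, limma adjusted p = 0.0344) and the PDGFR-β+ value was 0.08 ± 0.08 (limma adjusted p = 0.450). The SMC call was kept without the unnumbered siKlf4 library (limma adjusted p = 0.0364) and was lost without each of the other 5 libraries, with limma adjusted p up to 0.120 without siKlf4 replicate 2. The numbered SMC libraries gave 0.27 ± 0.05 (limma adjusted p = 0.0223).

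Nfkb1 (chr3:135584655-135691547, minus strand) encodes the precursor of the usual dimer partner of RelA. It was 84.9, 66.8 and 71.3 TPM in Scr and 95.0, 79.4 and 82.6 TPM in siKlf4 SMCs, and 43.8, 46.2 and 40.3 TPM in Scr and 62.0, 62.7 and 66.7 TPM in siKlf4 PDGFR-β+ cells. The unnumbered libraries were the highest of both SMC groups and the SMC groups overlapped, whereas the PDGFR-β+ groups were well apart. The PDGFR-β+ rise was 1.47-fold (log2 fold change 0.55 ± 0.08 SE, limma adjusted p = 0.00145) and held in all 6 fits without 1 library, and the SMC value was 0.21 ± 0.11 (limma adjusted p = 0.209). The SMC call depended on how the unnumbered libraries, high in both groups, were treated. The numbered libraries gave 0.23 ± 0.06 (limma adjusted p = 0.0503), the unnumbered libraries differed by 0.16, and with a term for the naming of the libraries the same 0.21 passed (limma adjusted p = 0.0233). The effects differed by -0.34 ± 0.14 (SMCs minus PDGFR-β+ cells, limma adjusted p = 0.0802), a difference that passed without the unnumbered siKlf4 SMC library (-0.42, limma adjusted p = 0.0396), without Scr SMC replicate 2 (-0.41, limma adjusted p = 0.0473) or with the numbered SMC libraries alone (-0.32, limma adjusted p = 0.0476).

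The genes of the slower route passed in neither cell type. Nfkb2 (chr19:46304320-46312385, plus strand), the precursor gene of that route, ranged from 41.0 to 50.9 TPM over all 12 libraries, with log2 fold changes of 0.10 ± 0.07 (SE, limma adjusted p = 0.330) in SMCs and -0.06 ± 0.08 (limma adjusted p = 0.619) in PDGFR-β+ cells. Relb (chr7:19606217-19629438, minus strand), the partner of its product, ranged from 18.3 to 26.9 TPM in SMCs and from 10.7 to 14.3 TPM in PDGFR-β+ cells, with log2 fold changes of 0.10 ± 0.15 (limma adjusted p = 0.629) and 0.08 ± 0.13 (limma adjusted p = 0.665). The highest Relb value belonged to siKlf4 SMC replicate 2, and both genes had overlapping groups in both cell types. The numbered SMC libraries gave 0.08 ± 0.06 for Nfkb2 (limma adjusted p = 0.318) and 0.17 ± 0.17 for Relb (limma adjusted p = 0.488). The gene Psd overlaps Nfkb2 on the other strand, at 0.236 to 3.45 TPM.

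**Figure D2:**
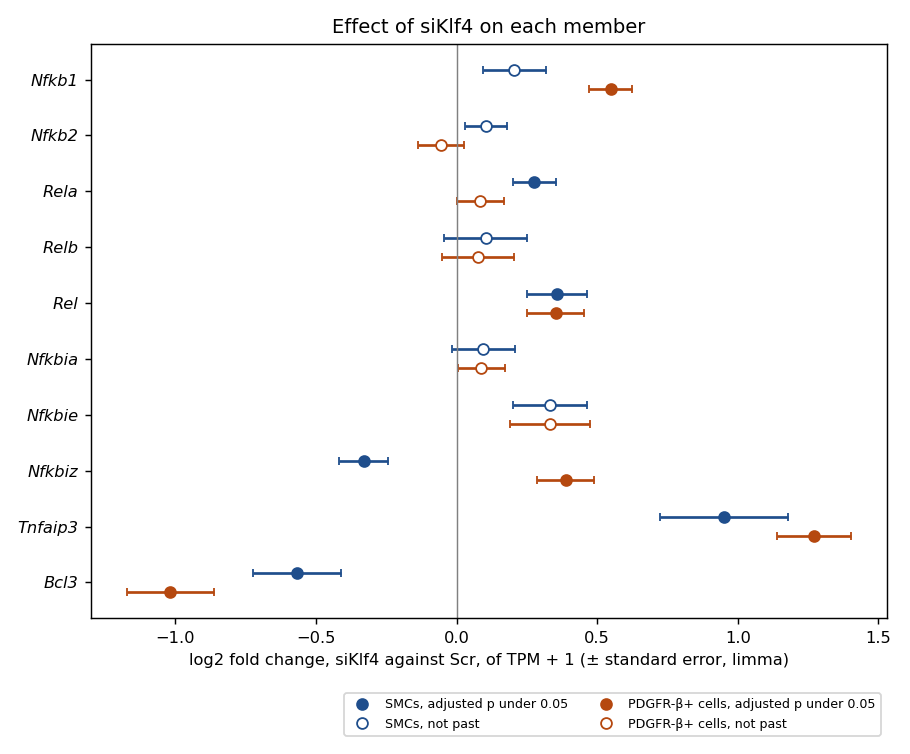
Log2 fold change of each member, siKlf4 against Scr, on the log2(TPM + 1) scale (horizontal axis, ± standard error from limma) in SMCs and PDGFR-β+ cells; filled points passed an adjusted p of 0.05. Nfkbiz lies at -0.33 in SMCs and 0.39 in PDGFR-β+ cells, and Bcl3 is below 0 and Tnfaip3 above 0 in both.

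In PDGFR-β+ cells the small positive values depend on the scaling. Median-ratio scaling lowered the median of all genes by 0.10 on the log2 scale and turned the split of calls from 62.3% higher to 47.0% higher. Relative to it Tnfaip3 was 1.17, Nfkb1 0.44, Nfkbiz 0.28 and Bcl3 -1.12, all still past the threshold, whereas Rel was 0.26 (limma adjusted p = 0.0665). Rela, Relb and Nfkbia changed sign under it, to -0.02, -0.03 and -0.02.

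The remaining interaction terms (SMCs minus PDGFR-β+ cells) did not pass. Bcl3 gave 0.45 ± 0.24 (SE, limma adjusted p = 0.164) and Tnfaip3 -0.32 ± 0.28 (limma adjusted p = 0.415), Rela 0.19 ± 0.11 (limma adjusted p = 0.209) and Nfkb2 0.16 ± 0.11 (limma adjusted p = 0.271). For Rel, Nfkbia, Nfkbie and Relb the terms lay between 0.002 and 0.027, with standard errors of 0.126 to 0.204.

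**Figure D3:**
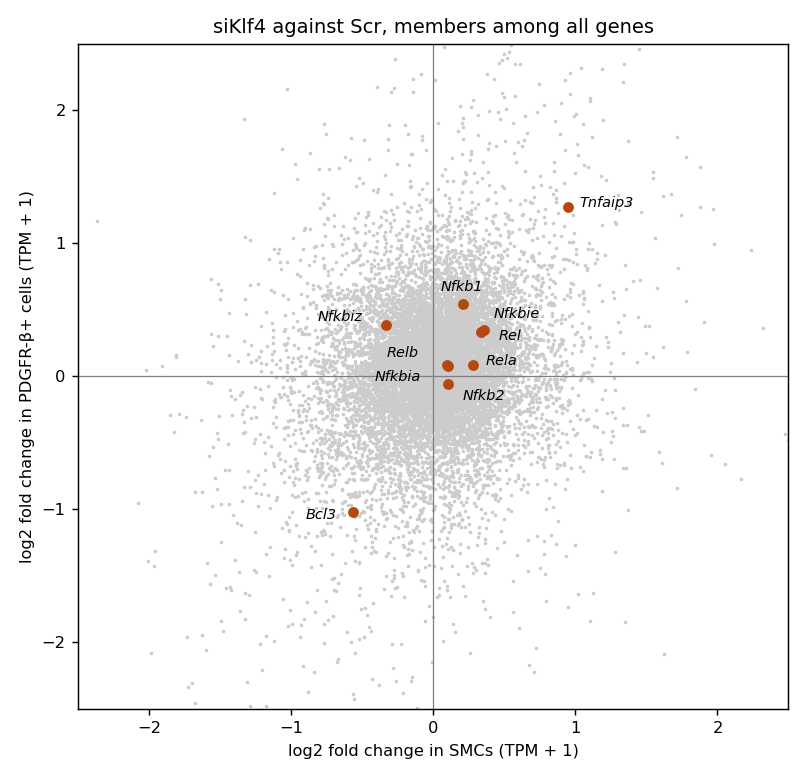
Log2 fold changes with siKlf4 in SMCs (horizontal) and PDGFR-β+ cells (vertical) on the log2(TPM + 1) scale for 13032 genes tested in both, in grey, with the 10 members in orange; 114 genes lie outside the axes. Tnfaip3 and Bcl3 sit toward opposite corners. The other members lie near the centre, with Nfkbiz in the upper left quadrant.

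Ratios within a library, in which library scaling cancels, were computed between members of related function and described without a test. Nfkbiz over Bcl3, the balance of the nuclear IκB transcripts, was 0.788 to 1.01 in Scr and 2.26 to 2.96 in siKlf4 PDGFR-β+ cells, and 0.722 to 0.880 in Scr and 0.853 to 1.03 in siKlf4 SMCs. This balance moved apart in PDGFR-β+ cells, where the genes went opposite ways, and overlapped in SMCs, where both fell. Tnfaip3 over Nfkbia went from 0.0995 ± 0.0098 (SD, n = 3) to 0.194 ± 0.046 in SMCs and from 0.217 ± 0.041 to 0.529 ± 0.071 in PDGFR-β+ cells. Nfkbia over Rela, inhibitor over subunit, was 1.13 to 1.26 in Scr and 1.02 to 1.11 in siKlf4 SMCs, without overlap, and 0.445 to 0.565 in Scr and 0.478 to 0.546 in siKlf4 PDGFR-β+ cells. The summed TPM of the 5 subunits is not a ratio, so library scaling does not cancel in it. The sum was 206 to 212 TPM in Scr and 239 to 246 TPM in siKlf4 SMCs. In PDGFR-β+ cells it was 160 to 185 TPM in Scr and 200 to 202 TPM in siKlf4. On the TPM scale the groups did not overlap in either cell type, and the sum was not computed under another scaling. Nfkb1 made up 24.8% ± 0.5 of that sum in Scr and 31.8% ± 1.4 in siKlf4 PDGFR-β+ cells (SD, n = 3), and 35.4% in both SMC groups.

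**Figure D4:**
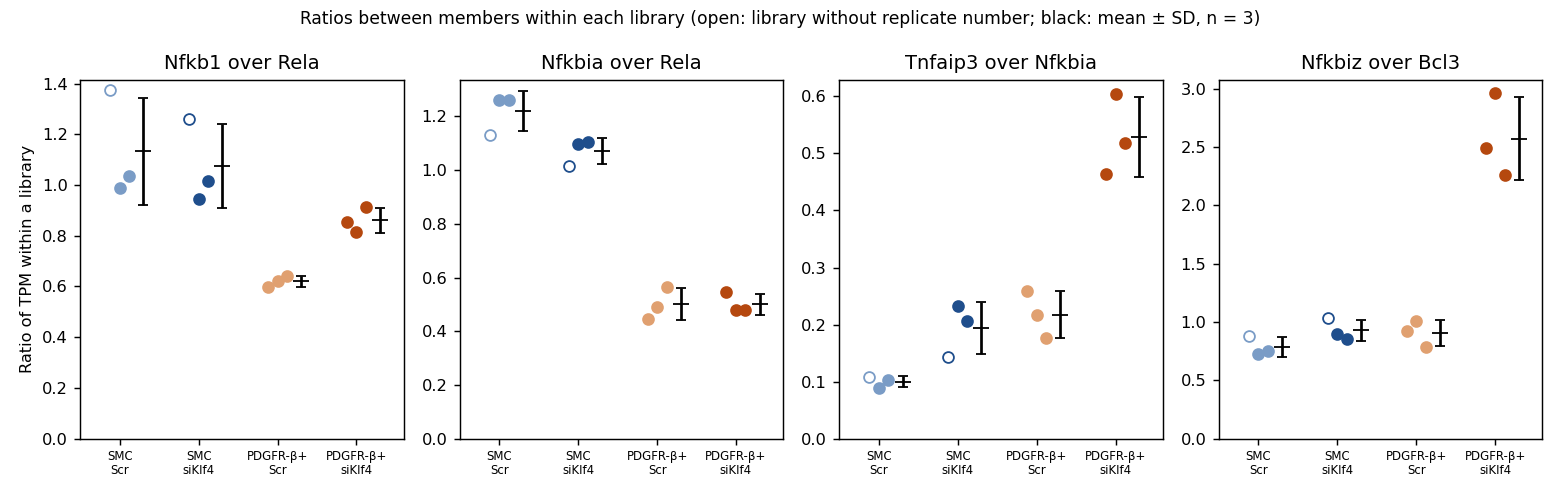
Ratio of TPM values between pairs of members within each library (vertical axes, linear from 0) by group, with open circles for the SMC libraries without a replicate number and black bars for the mean ± SD of 3 libraries. Nfkbiz over Bcl3 stands at 2.26 to 2.96 in siKlf4 PDGFR-β+ cells and at most 1.03 in the other groups.

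Control levels differed between the cell types, which are also different tables, sources and handling, so cell type and these cannot be told apart and no test was made. The Scr ranges of 7 members did not overlap, 6 higher in SMCs and 1 lower, against 58.9% of 14417 genes (30.7% higher in SMCs and 28.2% lower). Scr SMCs had 4.33-fold more Bcl3, 3.77-fold more Nfkbiz, 2.32-fold more Nfkbia, 1.87-fold more Nfkbie, 1.71-fold more Nfkb1 and 1.63-fold more Relb, and Rel was 1.26-fold higher in PDGFR-β+ cells. Rela, Nfkb2 and Tnfaip3 overlapped. Of the 5 IκB and feedback genes, Tnfaip3 was the exception to the higher SMC level. TPM is per transcript length, so levels can be ordered between genes. In Scr SMCs the order by mean was Bcl3 (85.5 ± 12.6 TPM, SD, n = 3), Nfkbia (80.7 ± 9.4), Nfkb1 (74.3 ± 9.4), Nfkbiz (66.5 ± 4.6) and Rela (66.0 ± 3.8), each overlapping the next, and then Nfkb2 (46.1 ± 2.8), Relb (19.7 ± 1.3), Nfkbie (9.38 ± 1.05), Tnfaip3 (7.99 ± 0.81) and Rel (3.81 ± 0.23), of which only Nfkbie and Tnfaip3 overlapped. In Scr PDGFR-β+ cells Rela led (70.1 ± 6.2 TPM), followed by Nfkb2 (45.0 ± 3.5) and Nfkb1 (43.4 ± 3.0), which overlapped, then Nfkbia (34.8 ± 2.1), then Bcl3 (19.7 ± 4.1) and Nfkbiz (17.6 ± 1.8), which overlapped, then Relb (12.1 ± 1.1), Tnfaip3 (7.53 ± 1.11), Nfkbie (5.01 ± 0.95) and Rel (4.80 ± 0.13), the last pair overlapping. With siKlf4, Bcl3 moved from rank 1 to rank 4 in SMCs and from rank 5 to rank 8 in PDGFR-β+ cells, where Tnfaip3 moved from rank 8 to rank 6.

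The rest of the pathway was described by 5 lists. Calls of list genes are those of the main fit, and how they depend on single libraries is not given. Of the ligands, 5 of 12 were expressed enough to test in SMCs, where 3 fell and 0 rose, and 4 in PDGFR-β+ cells, where 2 rose and 0 fell by limma. Over all genes 15.6% rose and 12.9% fell in SMCs and 25.3% rose and 15.3% fell in PDGFR-β+ cells. Tnf, Il1a and Il1b, the classical activating cytokines, were listed at 0 in all 12 libraries. Tnfsf11, which encodes RANK ligand, fell from 41.1 to 16.0 TPM in SMCs (log2 fold change -1.33 ± 0.18 SE, limma adjusted p = 0.00329) and rose from 3.19 to 15.0 TPM in PDGFR-β+ cells (1.94 ± 0.11, limma adjusted p = 2.46e-05), and these effects differed (-3.27 ± 0.22, limma adjusted p = 3.43e-06). Tnfsf13b, which encodes the B cell survival factor BAFF, fell from 16.1 to 4.82 TPM in SMCs and was 4.87 and 9.37 TPM in PDGFR-β+ cells, not past the threshold. Tnfsf12, the TWEAK gene, fell from 58.4 to 40.7 TPM in SMCs and was 43.5 and 45.2 TPM in PDGFR-β+ cells. The interleukin gene Il18 rose from 4.50 to 9.68 TPM in PDGFR-β+ cells and was 5.72 and 2.20 TPM in SMCs, not past the threshold.

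Among 12 receptors tested, 3 rose and 1 fell in SMCs and 4 rose and 4 fell in PDGFR-β+ cells, beside 28.5% and 40.6% of all genes called in either direction. Tnfrsf11a, the receptor gene for RANK ligand, rose in both, from 0.392 to 4.16 TPM and from 1.72 to 5.60 TPM. Tnfrsf12a, the TWEAK receptor gene, rose from 71.3 to 208 TPM in SMCs and fell from 289 to 193 TPM in PDGFR-β+ cells, with a difference of effects of 2.15 ± 0.33 (SE, limma adjusted p = 0.000549). The interleukin-33 receptor gene Il1rl1 rose in SMCs (47.8 to 63.2 TPM, limma adjusted p = 0.0401). It fell in PDGFR-β+ cells (59.4 to 36.2 TPM, limma adjusted p = 0.0309), where the groups overlapped. Il1r1, the interleukin-1 receptor gene, fell in SMCs (221 to 132 TPM) and rose in PDGFR-β+ cells (40.6 to 57.6 TPM), with a difference of effects of -1.23 ± 0.22 (SE, limma adjusted p = 0.00143). In PDGFR-β+ cells Tlr3, a sensor of double-stranded RNA, rose (14.5 to 40.1 TPM), Il1rap, the interleukin-1 co-receptor gene, rose (16.0 to 25.2 TPM) and Tnfrsf1a, the main tumour necrosis factor receptor gene, fell (305 to 198 TPM). In SMCs these did not pass, with means in Scr and siKlf4 of 16.3 and 17.0 TPM for Tlr3, 45.1 and 51.4 TPM for Il1rap and 460 and 412 TPM for Tnfrsf1a.

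Of 30 kinases and adaptors, 6 rose and 4 fell in SMCs and 9 rose and 4 fell in PDGFR-β+ cells, near the 28.5% and 40.6% called over all genes. Irak2 and Ripk2, kinases that relay interleukin-1, Toll-like and NOD receptor signals, rose in both cell types, Irak2 from 10.4 to 26.4 TPM in SMCs and from 11.2 to 26.3 TPM in PDGFR-β+ cells, and Ripk2 from 21.2 to 37.1 TPM and from 26.7 to 48.7 TPM. Of the IκB kinase genes, Chuk, the IKKα gene, rose in SMCs (61.0 to 83.6 TPM, log2 fold change 0.45 ± 0.07 SE, limma adjusted p = 0.00582) and was 59.2 and 49.9 TPM in PDGFR-β+ cells (-0.24 ± 0.10, limma adjusted p = 0.0976). Ikbkb, the IKKβ gene, was 24.2 and 23.7 TPM in SMCs and 30.8 and 28.6 TPM in PDGFR-β+ cells and passed in neither. Ikbkg, the gene of the regulatory subunit NEMO, fell from 33.4 to 14.2 TPM in PDGFR-β+ cells (-1.16 ± 0.24, limma adjusted p = 0.00787) and was 26.9 and 27.4 TPM in SMCs. Map3k14, the kinase gene of the slower route, lay between means of 14.1 and 16.0 TPM in all groups and passed in neither cell type. Birc2, a ubiquitin ligase gene, fell from 126 to 74.7 TPM in SMCs and rose from 25.4 to 36.4 TPM in PDGFR-β+ cells. Ikbke, the gene of an IκB kinase relative, likewise fell from 46.8 to 30.4 TPM and rose from 18.6 to 28.5 TPM, and Map3k8 fell from 25.7 to 17.7 TPM and rose from 4.52 to 7.13 TPM. The adaptor gene Tab2 went the other way. It rose from 81.2 to 102 TPM in SMCs, close to the threshold (limma adjusted p = 0.0491). In PDGFR-β+ cells it fell from 80.0 to 48.3 TPM (limma adjusted p = 0.0190). The effects on these 4 genes differed between the cell types (limma adjusted p of 0.000260 for Birc2, 4.25e-05 for Ikbke, 0.000115 for Map3k8 and 0.00516 for Tab2). Among the other adaptors, Myd88 rose from 31.0 to 54.3 TPM and Traf1 fell from 2.05 to 0.970 TPM in PDGFR-β+ cells, and neither passed in SMCs (55.9 and 54.2 TPM, and 1.28 and 0.991 TPM).

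Of 13 other inhibitors tested, 1 rose and 2 fell in SMCs, and 2 rose and 1 fell in PDGFR-β+ cells, beside 28.5% and 40.6% of all genes called. Irak3, a kinase-like brake on Toll-like receptor signalling, fell in both, from 51.9 to 23.6 TPM and from 10.4 to 4.91 TPM. N4bp1 rose from 36.1 to 79.7 TPM and Tollip from 96.4 to 114 TPM in PDGFR-β+ cells, and in SMCs Ppp6c rose from 29.0 to 37.1 TPM and Tnip2 fell from 21.6 to 15.5 TPM. These 4 genes did not pass in the other cell type.

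The target list showed rises and falls together. In SMCs 11 of 32 tested targets rose and 6 fell (median log2 fold change 0.26, against 0.02 over all genes), and in PDGFR-β+ cells 10 of 28 rose and 10 fell (0.03, against 0.10). Over all genes 15.6% rose and 12.9% fell in SMCs, and 25.3% rose and 15.3% fell in PDGFR-β+ cells. Some targets moved in opposite directions. The prostaglandin synthase gene Ptgs2 rose from 32.4 to 246 TPM in SMCs and fell from 205 to 140 TPM in PDGFR-β+ cells, and Ccnd1, the cyclin D gene, rose from 301 to 395 TPM in SMCs and fell from 558 to 159 TPM in PDGFR-β+ cells (limma adjusted p of the difference 0.000138 and 4.74e-06). Others moved the same way in both. The cytokine gene Lif rose from 3.48 to 14.0 TPM in SMCs and from 7.56 to 14.1 TPM in PDGFR-β+ cells, Tnfaip2 fell from 122 to 54.7 TPM and from 52.6 to 36.2 TPM, and the complement gene C3 fell from 2084 to 1029 TPM and from 43.1 to 11.9 TPM. The chemokine gene Cxcl10, which interferon also induces, rose from 0.987 to 4.88 TPM in SMCs and from 3.40 to 138 TPM in PDGFR-β+ cells. In PDGFR-β+ cells the chemokine gene Ccl5 rose from 1.79 to 101 TPM, the immunoproteasome gene Psmb9 rose from 0.390 to 7.24 TPM and the collagenase gene Mmp13 fell from 9.94 to 2.25 TPM, and these 3 did not pass in SMCs (1.22 and 2.91 TPM, 3.35 and 4.20 TPM, and 19.5 and 25.5 TPM). The lipocalin gene Lcn2 fell from 2184 to 1345 TPM in SMCs and was too low to test in PDGFR-β+ cells. The chemokine gene Ccl2 rose from 70.5 to 407 TPM in SMCs. It was 151 and 159 TPM in PDGFR-β+ cells (log2 fold change 0.08 ± 0.10 SE, limma adjusted p = 0.588).

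**Figure D5:**
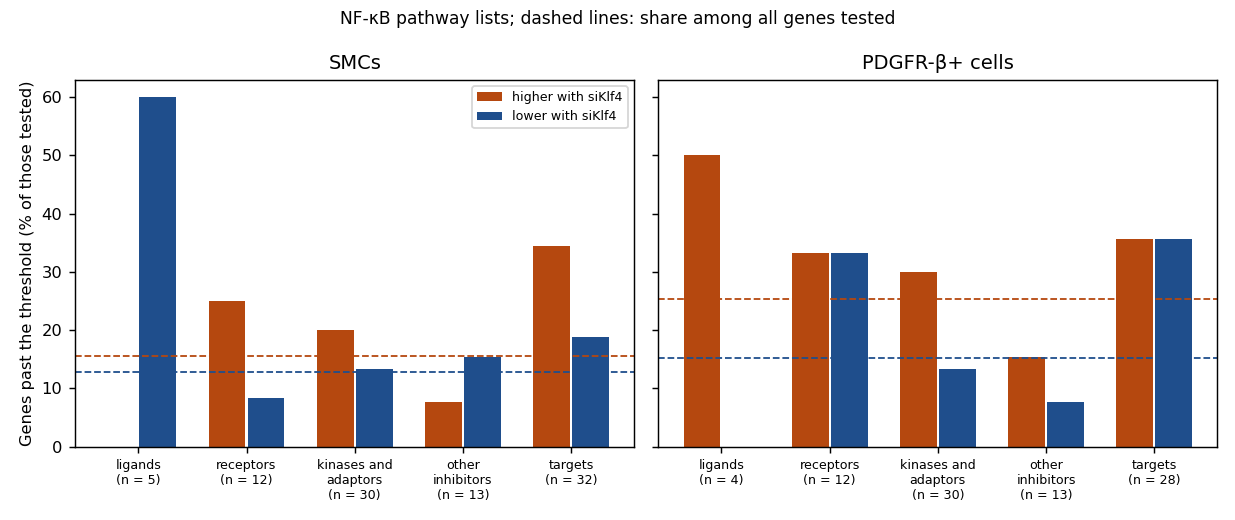
Share of the tested genes of each pathway list that passed the threshold (vertical axis, percent) in SMCs and PDGFR-β+ cells, higher in orange and lower in blue, with the number tested under each list and dashed lines for the share among all genes. Targets have both rises and falls in each cell type, and 3 of the 5 ligands tested in SMCs fell.

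The genes whose profile over the 12 libraries was most like each member were found among 13032 genes, as a description in which the libraries share cell type and treatment. Nfkbiz was most like Map3k8 (Pearson r = 0.994), the kinase gene above that also fell in SMCs and rose in PDGFR-β+ cells. Bcl3 was most like Sod2 (r = 0.991), the mitochondrial superoxide dismutase gene on the target list, which fell from 76.6 to 60.9 TPM in SMCs and from 30.8 to 19.9 TPM in PDGFR-β+ cells. Nfkbie was most like Gadd45b (r = 0.970) and Nfkbia like 1110008P14Rik (r = 0.996). Tnfaip3 was most like Chrnb1 (r = 0.973) and next Has2 (r = 0.970), the hyaluronan synthase gene, Rel like Mis18a (r = 0.983), Nfkb1 like Zim1 (r = 0.977), Rela like Rhbdf2 (r = 0.947), Relb like Wdr24 (r = 0.953) and Nfkb2 like Dad1 (r = 0.946).

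Other cell types could carry these genes. The 8 macrophage markers summed to 45.5 to 49.5 TPM in Scr and 24.9 to 29.6 TPM in siKlf4 SMCs, and to 35.4 to 37.0 TPM and 29.0 to 33.8 TPM in PDGFR-β+ cells. Most of the SMC sum was Cd14 (means of 41.0 and 22.1 TPM), which is not particular to macrophages. Most of the PDGFR-β+ sum was Lyz2 (means of 19.0 in Scr and 11.3 TPM in siKlf4), Cd68 (7.56 and 8.77 TPM) and Cd14 (6.88 and 10.5 TPM), and Csf1r was 2.28 and 0.775 TPM there. In SMCs Cd68 was 3.26 and 3.77 TPM, Lyz2 2.04 and 0.834 TPM and Csf1r 0.807 and 0.643 TPM. The other 4 markers were lower, with Fcgr1 listed at 0 in all groups and means of at most 0.0349 TPM for Adgre1, 0.0276 TPM for Itgam and 0.244 TPM for Ptprc. Endothelial markers summed to 1.34 to 18.4 TPM over all libraries and epithelial markers to at most 1.10 TPM. The summed smooth muscle markers, higher in siKlf4 than Scr SMCs as given above, were 4717 to 5012 TPM in siKlf4 PDGFR-β+ cells, below their controls. Most of the PDGFR-β+ sum was Acta2 (means of 4369 in Scr and 3572 TPM in siKlf4) and Tagln (1505 and 1036 TPM). Cnn1 and Des were also lower there. Myh11 (20.8 and 33.4 TPM), Smtn (62.3 and 77.3 TPM), Lmod1 (57.0 and 85.4 TPM), Synpo2 (5.32 and 8.98 TPM) and Myocd were higher, so these markers did not fall as a group. The part of these shifts in the changes of Bcl3, Nfkbiz and the other members was not tested. In bulk cultures fewer cells of a type and less RNA per cell cannot be told apart.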

How the data were processed

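RNA was measured by strand-specific poly(A) RNA-seq in 12 libraries. The authors aligned reads to mm10 with HISAT2 and GENCODE annotation (release not given in the sources used here), quantified transcripts by StringTie and ballgown, and provided separate TPM tables for the SMCs and the PDGFR-β+ cells, as deposited. TPM divides by transcript length and sums to 1000000 in each library, so it keeps no depth, no counting error can be given, and precision rests on 3 libraries per group. The study's DESeq2 test needs counts, which were not analysed here. Genes averaging 1 TPM or more within a cell type (6 libraries) were tested as log2(TPM + 1) with limma 3.58.1 under R 4.3.3 (lmFit, eBayes with trend, two-sided), each cell type alone, and the interaction over 12 libraries for genes at that mean in both. The fold changes understate those of low genes. The fits were tested on simulated data. Groups come from the labels. The SMC columns without a number were used by group. Deviations from group means correlated between same-numbered libraries at 0.185 and 0.199 in SMCs, against 0.0499 and 0.0476 between different numbers. In PDGFR-β+ cells the values were -0.0158 to 0.0732 for the same number and -0.0983 to 0.0831 for different numbers. The SMCs had only 2 numbered pairs, so numbers were not taken as pairs in the main fits, and a replicate block was fitted as an alternative. The 10 members and the lists were chosen with earlier results of these data known. Named beside them were Klf4, up to 3 genes per list, direction and cell type with the largest changes past the threshold, Tnf, Il1a, Il1b, Chuk, Ikbkb, Ikbkg, Map3k14 and Ccl2, and the genes most like each member. Positions are from GENCODE M21 and promoters from RefSeq GRCm38.p6. Alternatives were a pseudocount of 0.1, no filter, a mean of 5 TPM, median-ratio and quantile scaling, eBayes without trend, a single fit, a size limit of 1, a replicate block, leaving out each library, the numbered libraries alone and a term for the naming of columns.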

Additional observations from a re-analysis of the deposited data

Results flagged for a closer look

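The effect of siKlf4 on Nfkbiz differed between the cell types by the test of the difference itself. The knockdown also differed, with mean Klf4 at 21.9% of Scr in SMCs and 9.16% in PDGFR-β+ cells. Cell type, depth of knockdown, source and handling cannot be told apart. Nfkbiz fell from 66.5 to 52.7 TPM in SMCs and rose from 17.6 to 23.3 TPM in PDGFR-β+ cells, a difference of effects of -0.718 on the log2 scale (SMCs minus PDGFR-β+ cells, limma adjusted p = 0.00184). Of 13032 genes, 33.0% passed the same test and 19.3% had a larger difference in either direction. All 3 siKlf4 values lay below all 3 Scr values in SMCs and above them in PDGFR-β+ cells. Groups of 3 libraries are too small for a check of single outlying samples.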

How the results depend on the processing

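Of 687 results of alternatives, 16 counts moved by more than 1.5 times and 37 member values changed sign. A further 46 member results lost the call of the main fit and 6 gained a call. In SMCs the count of 5 members past the threshold became 0 with no filter on low values (more genes tested, 5 members at unadjusted p under 0.05 by limma), 0 at a log2 fold change of at least 1, and 0 to 2 on leaving out 1 library, with 0 without Scr replicate 2 (6 at unadjusted p) and without siKlf4 replicate 2 (5 at unadjusted p). The 4 numbered libraries gave 5, with Nfkbie in place of Rel, and a term for the naming of columns gave 7. Those 7 were the 5 of the main fit, with limma adjusted p between 0.00165 (Bcl3) and 0.0280 (Rel), and Nfkb1 and Nfkbie. In PDGFR-β+ cells the count of 5 became 3 with quantile scaling (without Rel and Nfkbiz), 2 at the size limit and 3 to 5 on leaving out 1 library. The count of differing members was 2 with the numbered SMC libraries and 1 to 2 on leaving out 1 library. The causes were not tested. With a replicate block the count was 3 in SMCs, over the 4 numbered libraries (losing Rela and Rel), and 4 in PDGFR-β+ cells, losing Rel (limma adjusted p = 0.0507).

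Changes of sign touched small values. In PDGFR-β+ cells median-ratio scaling gave Rela -0.025, Relb -0.027 and Nfkbia -0.021, and quantile scaling gave Relb -0.055 and Nfkbia -0.0056. The numbered SMC libraries turned the difference of Rel to -0.033 and of Nfkbia to -0.0099, a pseudocount of 0.1 turned that of Nfkbie to -0.025, and quantile scaling turned the Scr difference of Tnfaip3 to -0.107. On leaving out 1 numbered library the log2 fold change ranged from -0.060 to 0.163 for Relb in SMCs and from -0.0031 to 0.191 for Relb in PDGFR-β+ cells, the difference of effects from -0.136 to 0.106 for Relb, -0.015 to 0.039 for Rel, -0.041 to 0.064 for Nfkbia and -0.077 to 0.140 for Nfkbie, and the Scr difference from -0.027 to 0.079 for Nfkb2 and -0.030 to 0.156 for Tnfaip3. Without the unnumbered Scr SMC library the log2 fold change of Nfkbia in SMCs was -0.0046, and the difference of effects was -0.013 for Relb, -0.032 for Rel, -0.092 for Nfkbia and -0.083 for Nfkbie. TPM keeps no depth, so the low level of Rel could not be given a counting error.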
